A study of Homo sapiens with 9 samples.

Results

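The cytosolic ribosomal protein genes are described here as they were measured in U-373MG, an established human cell line whose label gives it as glioblastoma and astrocytoma. Genes were taken by symbol alone, as those written RPL or RPS with a number and at most the added letters A, X or L, together with RPLP0, RPLP1, RPLP2 and RPSA. This gave 82 of the 24462 symbols counted, 50 of the large ribosomal subunit and 32 of the small subunit. There were 3 groups of 3 libraries, all from this 1 line: untreated control cells, cells given 200 nM of the peptide NnK-1 for 48 h, and cells given 200 nM of the peptide CBRV1-10493 for 48 h. Both peptides are synthetic, derive from jellyfish and are described as ShK-like, after a sea anemone toxin that blocks a voltage-gated potassium channel. Each peptide is compared with the same control libraries, whose time in culture the labels leave out. Each library was made from total RNA with a QuantSeq kit, so that reads come from the 3′ ends of messenger RNAs, and held between 11203094 and 13491075 counts. Levels are given as CPM, the count scaled by the library's total count. The statistics come from 1 edgeR quasi-likelihood fit over all 9 libraries and 13676 genes, with Benjamini-Hochberg adjustment over all of them. Whether the libraries of a group were grown as separate cultures is not stated, so the spread behind each p-value may be partly or wholly technical.

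The cytosolic ribosome is built from a small subunit, which binds the messenger RNA and reads its codons, and a large subunit, which joins the amino acids and passes the growing chain through an exit tunnel. Each subunit holds ribosomal RNA and 1 copy of most of its proteins, so the protein genes have long served as a textbook case of coordinated expression. Their messenger RNAs typically begin with a C followed by an unbroken run of pyrimidines, the terminal oligopyrimidine (TOP) motif, through which the kinase complex mTORC1 and the binding protein LARP1 control their translation. RPL5 and RPL11 join the large subunit together with the 5S ribosomal RNA.

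The start-site sequences below are shown because the pyrimidine run is the sequence feature these genes share, and because they belong to members whose values are described further on. Each holds 10 bases before the annotated transcription start and 20 from it, 5′ to 3′ on the gene's strand, taken from RefSeq on the build GRCh38.p14, with the longest run of C and T of 8 or more bases that touches the window in capitals.
RPS3 (chr11:75399508-75399537, plus strand): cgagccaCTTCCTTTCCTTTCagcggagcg
RPL36A (chrX:101391001-101391030, plus strand): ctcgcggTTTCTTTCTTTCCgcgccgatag
RPS10 (chr6:34426050-34426079, minus strand): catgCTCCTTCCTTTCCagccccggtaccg
RPL28 (chr19:55385922-55385951, plus strand): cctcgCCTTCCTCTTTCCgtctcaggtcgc
RPL10A (chr6:35468391-35468420, plus strand): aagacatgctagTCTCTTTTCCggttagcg
RPS14 (chr5:150449720-150449749, minus strand): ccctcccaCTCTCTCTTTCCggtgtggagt
RPS27 (chr1:153990752-153990781, plus strand): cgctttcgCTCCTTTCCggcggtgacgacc
RPS27L (chr15:63157458-63157487, minus strand): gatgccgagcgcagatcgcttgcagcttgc
RPS4X (chrX:72277229-72277258, minus strand): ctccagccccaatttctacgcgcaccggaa
The runs of RPS3 and RPL28 were 14 and 13 bases long and that of RPS27 was 9 bases long. RPS27L, a close relative of RPS27, had no run of 8 bases at its annotated start, and neither had RPS4X, the X-linked small subunit gene.

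Of the 82 members, 65 had a start in the RefSeq table. A run of at least 8 pyrimidines overlapping the 10 bases to either side of a start was found for 55 of these 65 genes (84.62%), against 5122 of all 27305 genes of that table (18.76%). The large subunit genes (85.0%) and the small subunit genes (84.0%) were alike in this share. A purine run of the same length, which is a pyrimidine run on the other strand, was found for 4.615% of members and 15.85% of all genes. The letters TTTCC, which often end a TOP motif and so can lie inside the run, stood within 25 bases of the start on the gene's own strand in 55.38% of members and 10.09% of all genes. On the other strand TTTCC stood in 6.154% of members and 7.9% of all genes. These matches describe the letters of the annotated starts, which were not measured here, since the reads come from the other end of the transcript.

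Ribosomal protein transcripts made up 6.65% ± 0.279 of all counts in control cells (SD, n = 3), 6.47% ± 0.126 in NnK-1 cells and 6.66% ± 0.181 in CBRV1-10493 cells. The summed level was 69584, 64106 and 65908 CPM in the control libraries, 66164, 63943 and 64011 CPM with NnK-1 and 64521, 67235 and 67940 CPM with CBRV1-10493. The 3 groups overlapped, and the control group alone spanned nearly the whole range, with its replicate 1 the highest of the 9 libraries. Large subunit genes took 3.36% ± 0.173, 3.27% ± 0.104 and 3.38% ± 0.112 of counts in control, NnK-1 and CBRV1-10493 cells. Small subunit genes took 3.3% ± 0.108, 3.2% ± 0.0254 and 3.28% ± 0.0732. The ratio of the summed levels, large over small, was 1.02 ± 0.0203, 1.02 ± 0.0254 and 1.03 ± 0.0163, differences smaller than the spread of replicates. Without the 5 most abundant members of each subunit the ratio was 1.22 ± 0.00777 in control, 1.25 ± 0.00784 with NnK-1 and 1.25 ± 0.0097 with CBRV1-10493, a gap between control and either peptide that was larger than the SD of each group. Both peptides share these controls, and this difference was not tested. In RNA of whole cultures, fewer cells of a kind and less RNA per cell cannot be told apart, and a share of counts gives no amount of RNA per cell.

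**Figure D1:**
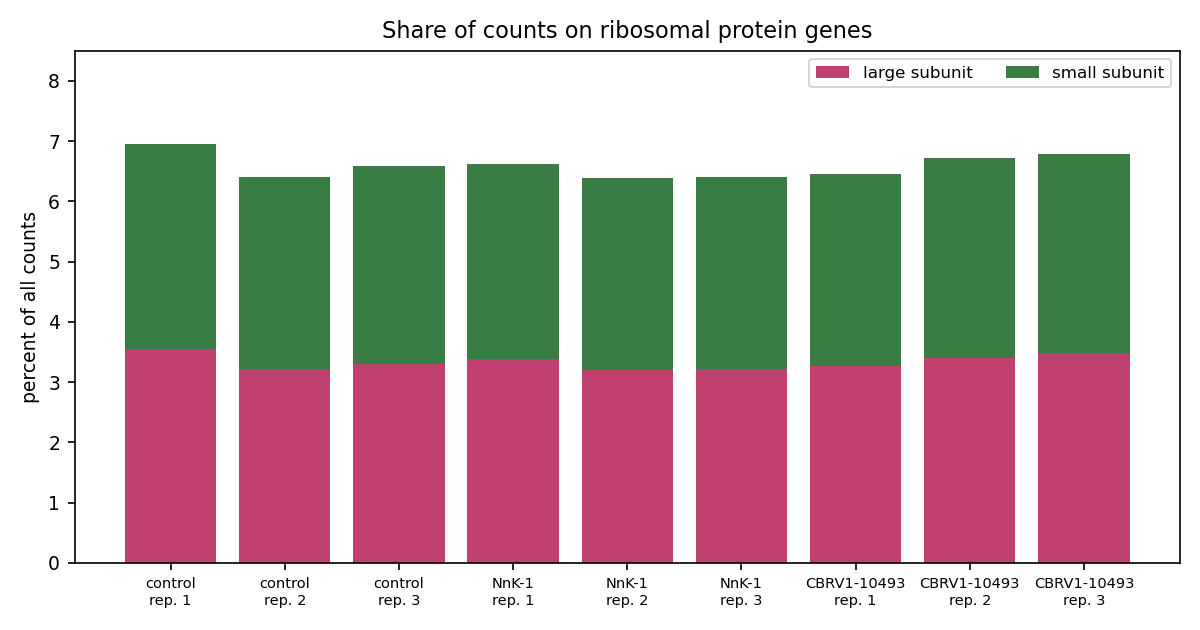
Bars show the percent of all counts that fell on ribosomal protein genes in each of the 9 libraries, split into large subunit (pink) and small subunit (green) genes. Totals lie between 6.39% and 6.96%, and the groups overlap.

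Members differed far more from each other than any member did between groups. By mean over the 9 libraries, 27 stood above 1000 CPM, 47 between 100 and 1000, 6 between 10 and 100 and 2 below 1, with a median of 611 CPM for the large and 876 CPM for the small subunit genes. CPM in 3′ libraries is not divided by transcript length, and a level also moves with how well the 3′ end can be read and told from copies of the gene, so levels of different genes are given only as a description. The small subunit genes with the highest mean levels were RPS20, a protein of the subunit's head, at 3564 CPM, RPS28, which lies at the messenger RNA exit, at 2735 CPM, and RPS27A, made as a fusion with ubiquitin, at 2449 CPM. Among large subunit genes they were RPLP1 at 2532 CPM, RPL27A at 1501 CPM and RPLP0 at 1441 CPM. RPLP0, RPLP1 and RPLP2 form the stalk that recruits elongation factors, and RPLP2 stood at 758 CPM. The lowest tested members were RPS26, near the messenger RNA exit, at 17.8 CPM, RPL39L at 20.8 CPM, RPL15 at 27.9 CPM and RPL21 at 31.6 CPM, followed among small subunit genes by RPS27L at 166 CPM and RPS25 at 181 CPM.

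**Figure D2:**
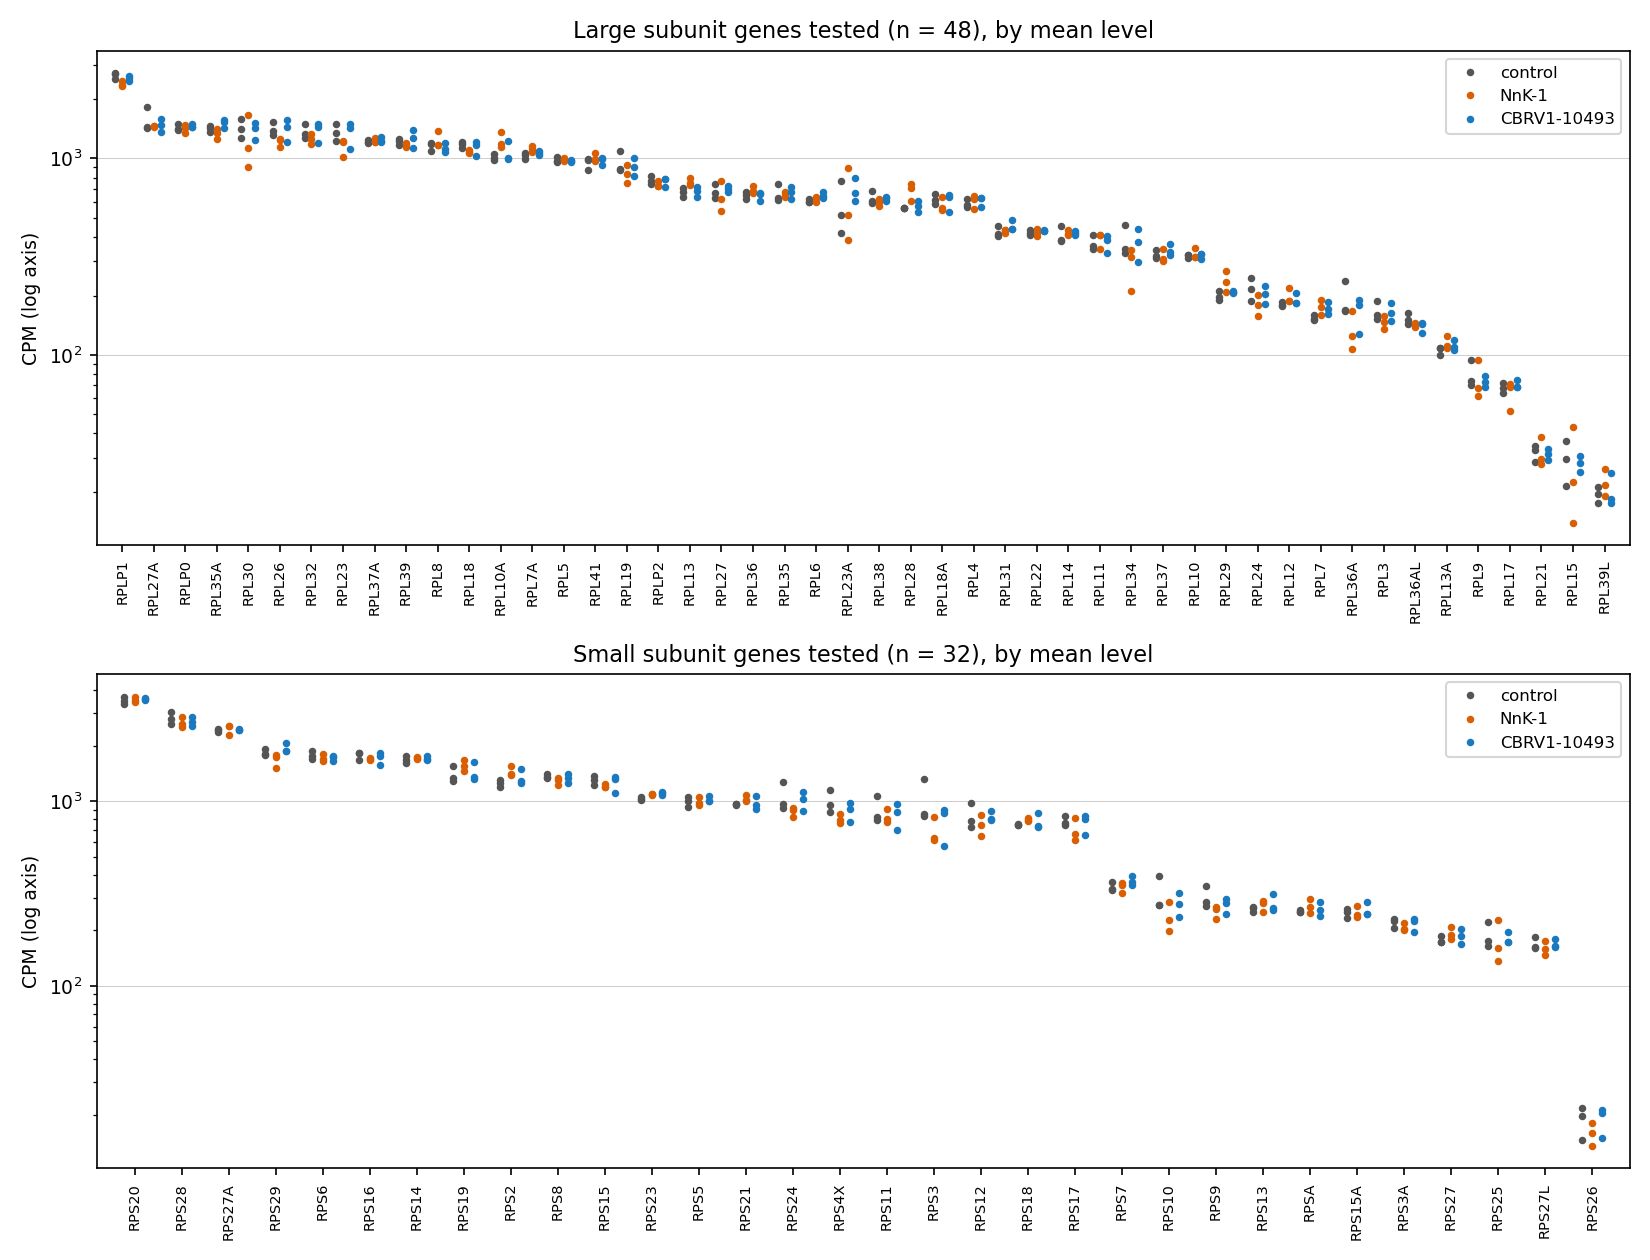
Each point is the CPM (log axis) of 1 tested gene in 1 library, with 48 large subunit genes above and 32 small subunit genes below, ordered by mean level; grey is control, orange NnK-1 and blue CBRV1-10493. The 3 groups lie close together for most genes, while levels run from 17.8 CPM for RPS26 to 3564 CPM for RPS20.

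Paralogs made for particular tissues were low or absent. RPL3L, the striated muscle form of RPL3, had 9 reads in all 9 libraries together, and RPL10L, a testis form of RPL10, had 47 reads. Neither passed the filter on low counts, which the other 80 members passed, and neither was tested. RPL39L, a germ cell form of RPL39 also seen in tumours, was tested and lay between 17.6 and 26.4 CPM. Their widely expressed counterparts RPL3, RPL10 and RPL39 had means of 159, 322 and 1220 CPM. RPL36AL stood at 145 CPM beside RPL36A at 164 CPM, and RPS27L at 166 CPM beside RPS27 at 186 CPM. Between NnK-1 and control the log2 fold change was -0.16 for RPL3, 0.07 for RPL10, -0.03 for RPL39, 0.22 for RPL39L, -0.08 for RPL36AL, 0.15 for RPS27 and -0.05 for RPS27L, and their 95% intervals all included 0.

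Most members were steady from library to library. Among the 80 tested members, the ratio of the highest to the lowest of the 9 libraries was under 1.2 for 26, over 1.5 for 16 and over 2 for 5. Within groups the SD of log2 CPM had a median of 0.104 over the 80 tested members, 0.12 over the 2077 other genes at 100 CPM or more and 0.172 over the 9028 other genes at 10 CPM or more. RPL5, the partner of 5S ribosomal RNA, had the lowest coefficient of variation, 2.02%, with 1015, 970 and 963 CPM in control, 988, 967 and 1011 CPM with NnK-1 and 975, 986 and 961 CPM with CBRV1-10493. The others of the 3 steadiest in each subunit were RPS14, RPL37A, RPL22, RPS20 and RPS23, which sits at the decoding centre, at 2.58%, 2.68%, 2.78%, 3.13% and 3.37%. At the other end, the 3 most variable members of each subunit were RPL15 at 30.4%, RPL23A, a docking protein at the tunnel exit, at 28.6%, RPS3 at 27.1%, RPL36A at 24.3%, RPS10 at 20.6% and RPS26 at 17.6%. RPL23A had 770, 516 and 416 CPM in control, 892, 385 and 517 CPM with NnK-1 and 604, 666 and 799 CPM with CBRV1-10493. Its highest and its lowest library were both NnK-1 libraries.

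In cells given NnK-1, no ribosomal protein gene passed the adjusted threshold of 0.05, and none of the 13676 genes did (0% called). The smallest adjusted p over all genes was 0.4993 (edgeR). DESeq2 called 2 genes, neither of them a ribosomal protein gene, and limma-voom called 0. At an unadjusted p under 0.05, with 7.32% of all tested genes so called, the members numbered 16 of 80 (20%). Of other genes at 100 CPM or more the share was 12.4%. The count depended on single libraries: 5 members stood at that level without control replicate 1, 7 without NnK-1 replicate 2, 10 without CBRV1-10493 replicate 2 and 21 without NnK-1 replicate 1, where the shares of all genes were 5.31%, 5.27%, 6.64% and 11.7%.

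With NnK-1 the members were spread evenly to both sides of control. Of 80 tested members 40 had a positive and 40 a negative log2 fold change, with a median of -0.01 beside 0.0033 over all genes. Other genes at 100 CPM or more had a median of 0.0252, with 1206 positive and 871 negative. The median was 0.01 for the 48 large subunit genes, 26 of them positive, and -0.04 for the 32 small subunit genes, 14 of them positive. The fold changes ran from -0.52 for RPS3 to 0.32 for RPL28. A member's 95% interval reached to a median of 0.19 on either side on the log2 scale, and for 70 of 80 members the whole interval lay within 0.5 of 0. Groups did not overlap for 16 members, against 12.8% of all genes and 18% of other genes at 100 CPM or more. They were 11 higher and 5 lower with NnK-1, where 6.08% of all genes were higher and 6.76% lower without overlap.

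RPS3, a small subunit protein at the messenger RNA entry that also has reported roles in DNA repair, had 1324, 838 and 851 CPM in control, 819, 620 and 630 CPM with NnK-1 and 574, 862 and 904 CPM with CBRV1-10493. All NnK-1 libraries lay below all control libraries, although the highest of them, replicate 1, was within 20 CPM of control replicate 2. The control group was itself spread, with replicate 1 far above the other two. The log2 fold change with NnK-1 was -0.52 (95% interval -0.85 to -0.18, adjusted p = 0.5776, edgeR), lower in 3 of 3 libraries. Without control replicate 1 it was -0.27 (adjusted p = 0.922). With no filter on low counts, 74 genes passed and RPS3 was among them at -0.51 (adjusted p = 7.39e-05), as were RPL36A and RPS10. In that fit the prior degrees of freedom, which set how far each gene's spread is drawn to the common one, were infinite, against 13.6 with the filter.

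Of the 10 members lower with NnK-1 at an unadjusted p under 0.05, 5 belonged to each subunit: RPL23, RPL24, RPL26, RPL34, RPL36A, RPS3, RPS4X, RPS9, RPS10 and RPS24. The share of all genes lower at this level was 3.56%, and of other genes at 100 CPM or more 4.53%. By CPM, before the scaling between libraries that the fit applies (TMM), the highest of the 9 libraries was control replicate 1 for 9 of the 10. The lowest was NnK-1 replicate 2 for 8 of the 10. That library had the lowest TMM factor, 0.97, so its CPM stand low beside the scaled levels, and the count of 8 can be smaller on the scaled level. RPS10, a protein of the small subunit's beak, had 394, 276 and 276 CPM in control and 284, 199 and 227 CPM with NnK-1, a log2 fold change of -0.39 (adjusted p = 0.5881, edgeR). Its groups overlapped, with NnK-1 replicate 1 above 2 of the 3 controls. RPS4X had 1153, 881 and 951 CPM in control and 790, 764 and 850 CPM with NnK-1, a log2 fold change of -0.29 (adjusted p = 0.5834, edgeR), with no overlap. Without control replicate 1 these values were -0.2 for RPS10 and -0.17 for RPS4X.

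The 6 members higher with NnK-1 at an unadjusted p under 0.05 were RPL7, RPL10A, RPL13, RPL28, RPL29 and RPS2, beside 3.76% of all genes and 7.9% of other genes at 100 CPM or more. RPL28, a large subunit protein found in eukaryotes only, had 557, 561 and 558 CPM in control, 742, 711 and 606 CPM with NnK-1 and 607, 532 and 573 CPM with CBRV1-10493. Its 3 control libraries lay within 4 CPM of each other and all NnK-1 libraries lay above them. The log2 fold change was 0.32 (0.14 to 0.51, adjusted p = 0.4993, edgeR), and leaving out any 1 library gave values from 0.28 to 0.41. RPL10A, of the L1 stalk through which used transfer RNA leaves, had 977, 1009 and 1053 CPM in control and 1181, 1358 and 1146 CPM with NnK-1, a log2 fold change of 0.31 (adjusted p = 0.5776, edgeR). Its groups did not overlap. RPS2, which lies at the messenger RNA entry with RPS3, had a log2 fold change of 0.24 where RPS3 had -0.52.

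**Figure D3:**
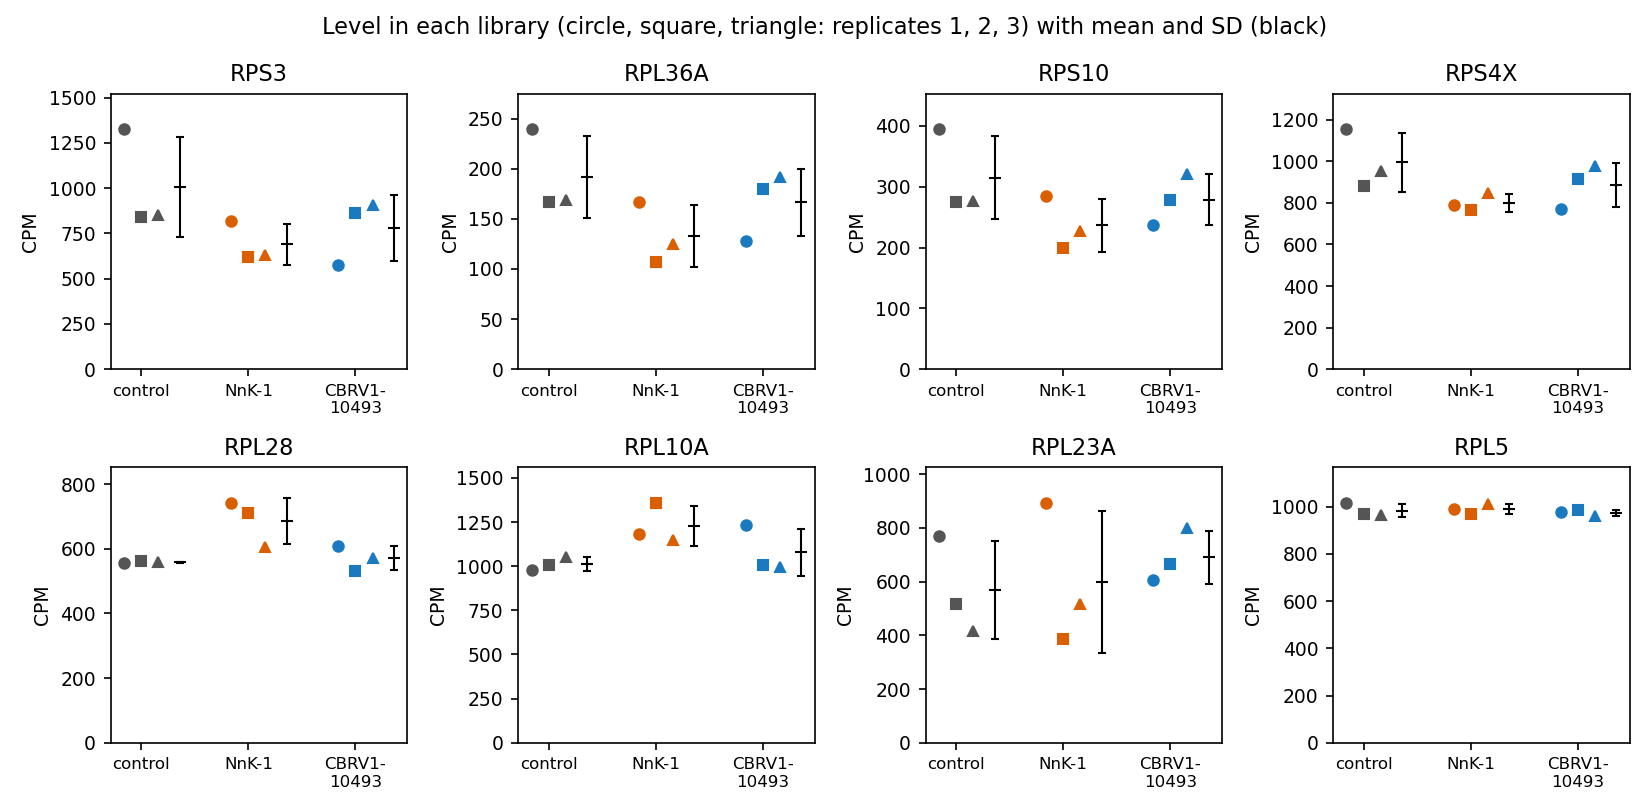
Each panel shows 1 gene, with CPM from 0 on the vertical axis, points for replicates 1, 2 and 3 of control (grey), NnK-1 (orange) and CBRV1-10493 (blue), and the group mean with its SD in black. Control replicate 1 is the highest point for RPS3, RPL36A, RPS10 and RPS4X, while the control libraries of RPL28 and all libraries of RPL5 lie close together.

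RPL36A, a large subunit protein near the exit site of transfer RNA, shares its locus with another counted entry. It had 239, 167 and 169 CPM in control, 167, 107 and 125 CPM with NnK-1 and 128, 180 and 191 CPM with CBRV1-10493, a log2 fold change of -0.5 with NnK-1 (-0.84 to -0.17, adjusted p = 0.5776, edgeR). Without control replicate 1 this was -0.32 (adjusted p = 0.922), and leaving out any 1 library gave values from -0.69 to -0.32. The files also count the readthrough entry RPL36A-HNRNPH2, which had 12079 reads in all beside 18200 for RPL36A. RPL36A took 69.7%, 61.4% and 61.0% of the pair's counts in control, 62.1%, 44.6% and 52.6% with NnK-1 and 49.4%, 65.8% and 66.7% with CBRV1-10493. With the readthrough counts added to each parent gene, the log2 fold change of RPL36A with NnK-1 was -0.23 (adjusted p = 0.643) and that of RPS10, with RPS10-NUDT3, was -0.33. The sources used here do not say how reads of shared exons were assigned, so values of these genes are uncertain.

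In cells given CBRV1-10493, none of the 13676 genes passed (0% called, smallest adjusted p = 1, edgeR), with 395 genes at an unadjusted p under 0.05 and 0 called by DESeq2 or limma-voom. Of the 80 members 1 reached that unadjusted level (1.25%), beside 2.89% of all genes and 1.83% of other genes at 100 CPM or more. By direction, 1.34% of all genes were higher and 1.55% lower at this level. The member was RPS3, lower, with a log2 fold change of -0.35 (-0.69 to -0.01, adjusted p = 1, edgeR). Its groups overlapped: CBRV1-10493 replicates 2 and 3, at 862 and 904 CPM, lay above control replicates 2 and 3. Without control replicate 1 the value was -0.11, without CBRV1-10493 replicate 1 it was -0.18, and without both of these and NnK-1 replicate 2 it was 0.07.

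The median log2 fold change of the members with CBRV1-10493 was 0.03, with 49 positive and 31 negative, beside 0.0027 over all genes. Other genes at 100 CPM or more had a median of 0.0125, with 1180 positive and 897 negative. The members' median was 0.03 for large and 0.02 for small subunit genes. The median moved to 0.06 without control replicate 1 and to -0.01 without control replicate 2. For 76 of 80 members the whole 95% interval lay within 0.5 of 0. Groups did not overlap for 5 members, all higher with CBRV1-10493, against 8.97% of all genes (4.55% higher and 4.42% lower) and 7.61% of other genes at 100 CPM or more. These were RPL6, RPL7, RPL35A, RPS23 and RPS27A, of which RPL6 was picked after its values were seen. RPL35A, mutated in some families with Diamond-Blackfan anaemia, had 1456, 1357 and 1425 CPM in control and 1432, 1534 and 1563 CPM with CBRV1-10493, before the scaling between libraries that the fit applies. Its log2 fold change was 0.11 (-0.05 to 0.27, adjusted p = 1, edgeR). RPS23 had 1058, 1032 and 1012 CPM in control, 1101, 1087 and 1091 CPM with NnK-1 and 1106, 1122 and 1084 CPM with CBRV1-10493, so that all 6 treated libraries lay above all 3 controls. Its log2 fold changes, 0.11 for each peptide with the same controls, were small and their intervals included 0 (adjusted p = 0.781 for NnK-1 and 1 for CBRV1-10493, edgeR).

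**Figure D4:**
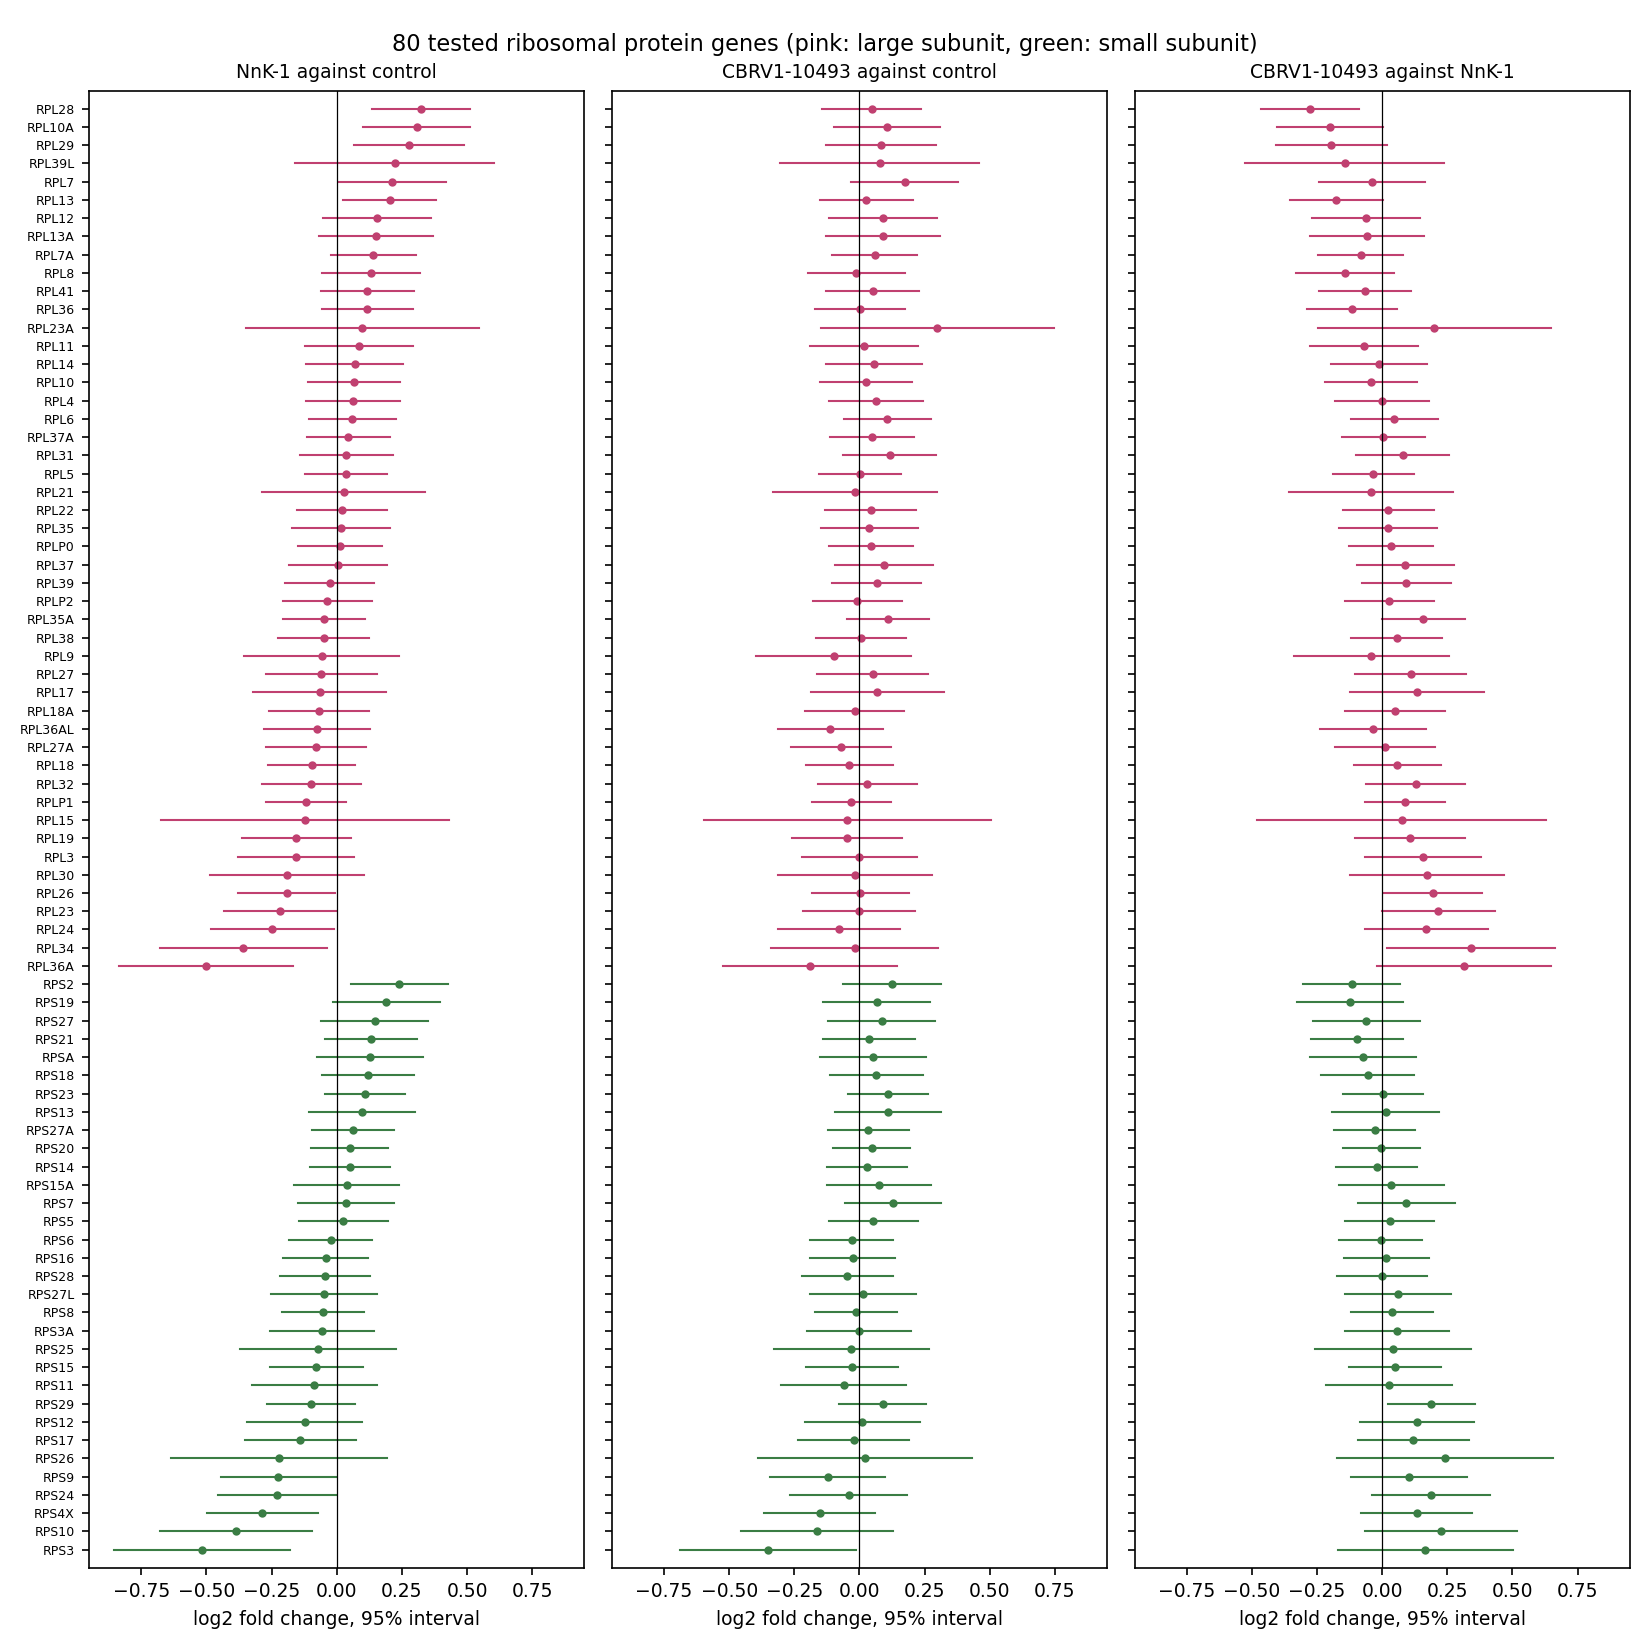
Points give the log2 fold change of each of the 80 tested members with its 95% interval, for NnK-1 against control (left), CBRV1-10493 against control (middle) and CBRV1-10493 against NnK-1 (right), large subunit genes in pink and small in green, in the same order in all panels. Fold changes run from -0.52 to 0.32 on the left and lie nearer 0 in the middle, where the 1 interval that excludes 0 is that of RPS3.

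Between the 2 peptides, at the same dose and time, none of the 13676 genes passed (0% called, smallest adjusted p = 0.9938, edgeR, with 589 genes at an unadjusted p under 0.05 and 0 called by DESeq2 or limma-voom). At that unadjusted level stood 5 of 80 members (6.25%), 4 higher and 1 lower with CBRV1-10493, beside 4.31% of all genes (1.96% higher and 2.35% lower) and 4.81% of other genes at 100 CPM or more. RPL28 was lower with CBRV1-10493 (log2 fold change -0.28, -0.47 to -0.09, adjusted p = 0.9938, edgeR). Its groups overlapped by 1 CPM, between CBRV1-10493 replicate 1 and NnK-1 replicate 3. RPL26, RPL34, RPL35A and RPS29 were higher, by 0.2, 0.34, 0.16 and 0.19 on the log2 scale. For all 4 the lowest of the 9 libraries, by CPM without TMM, was NnK-1 replicate 2. RPS29, a zinc-binding protein of the small subunit's head, had 1748, 1521 and 1793 CPM with NnK-1 and 1871, 2064 and 1877 CPM with CBRV1-10493, with no overlap (log2 fold change 0.19, 0.02 to 0.36, adjusted p = 0.9938, edgeR). RPS3 differed by 0.17 (-0.17 to 0.5). Members at an unadjusted p under 0.05 numbered 1 without NnK-1 replicate 2, 1 without CBRV1-10493 replicate 2, 17 without NnK-1 replicate 1 and 17 without CBRV1-10493 replicate 1. In the same fits the shares of all genes were 3.21%, 3.05%, 9.02% and 7.18%.

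The median log2 fold change of the members between the peptides was 0.03, with 49 higher and 31 lower with CBRV1-10493, beside 0.0011 over all genes. Other genes at 100 CPM or more had a median of -0.0109, with 950 higher and 1127 lower. The members' median was 0.03 for large and 0.03 for small subunit genes. For 72 of 80 members the 95% interval lay within 0.5 of 0. Groups did not overlap for 6 members, 3 in each direction, against 8.82% of all genes (4.42% higher and 4.4% lower) and 6.88% of other genes at 100 CPM or more.

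Small sets of members that share a place in the ribosome or a known role are given next. The stalk proteins RPLP0, RPLP1 and RPLP2 had log2 fold changes of 0.01, -0.12 and -0.04 with NnK-1 and 0.04, -0.03 and -0.01 with CBRV1-10493. RPL5 and RPL11 had 0.04 and 0.08 with NnK-1 and 0.0021 and 0.02 with CBRV1-10493. RPS6, whose protein is phosphorylated by the S6 kinases below mTORC1, had -0.02 and -0.03, and RPSA, also known as a laminin receptor, had 0.13 and 0.05. Of the 8 proteins around the exit tunnel 4 were positive and 4 negative with NnK-1, with a median of -0.01, and 7 were positive with CBRV1-10493, with a median of 0.05. Between the peptides all 8 were higher with CBRV1-10493, with a median of 0.1. At an unadjusted p under 0.05 stood 1 of the 8, and 1 had no overlap, beside 4.31% and 8.82% of all genes. By CPM without TMM, NnK-1 replicate 2 was the lowest of the 9 libraries for RPL17, RPL19, RPL23A and RPL26. Of the 10 genes known from Diamond-Blackfan anaemia, an inherited failure of red cell production, 4 were positive with NnK-1 and 7 with CBRV1-10493, with medians of -0.09 and 0.01. With NnK-1 3 of the 10 were lower at an unadjusted p under 0.05 and 2 lower without overlap, beside 3.56% and 6.76% of all genes. None was higher in either way. With CBRV1-10493 these counts were 0 and 0, and 1 gene was higher without overlap, beside 4.55% of all genes. Between the peptides 7 of these 10 were higher with CBRV1-10493, with a median of 0.14, 2 of them at an unadjusted p under 0.05 and 1 without overlap. No gene of these sets passed in any comparison.

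Control replicate 1 and NnK-1 replicate 2 carried much of the members' spread. On the TMM-scaled level, control replicate 1 was the highest library for 20 of 80 members (25%), against 11.92% of the 9028 other genes at 10 CPM or more. NnK-1 replicate 2 was the highest for 19 members (23.75%, against 21.82%) and the lowest for 22 (27.5%, against 16.84%). Control replicate 2 was the highest for 0 members, against 8.175% of other genes. The members' deviations from their own means had an SD of 0.2289 in NnK-1 replicate 2, 0.1823 in control replicate 1 and 0.0694 in control replicate 2, on the log2 scale. Members whose transcripts are rich in G and C stood differently in NnK-1 replicate 2 from the others: the median deviation there was -0.05, -0.07 and 0.06 in the members of low, middle and high GC content, split into 3 bins of like size. In other genes at 100 CPM or more, binned at the same GC bounds, these values were -0.01, 0.06 and 0.12. Binned by the GC content of the transcript's 3′ end instead, they were -0.04, -0.08 and 0.02 in members and -0.01, 0.11 and 0.13 in other genes. In control replicate 1 the values by whole-transcript GC were 0.04, 0.11 and 0.01 in members and -0.0002, -0.04 and -0.08 in other genes. The part of GC content in the members' fold changes was not tested.

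**Figure D5:**
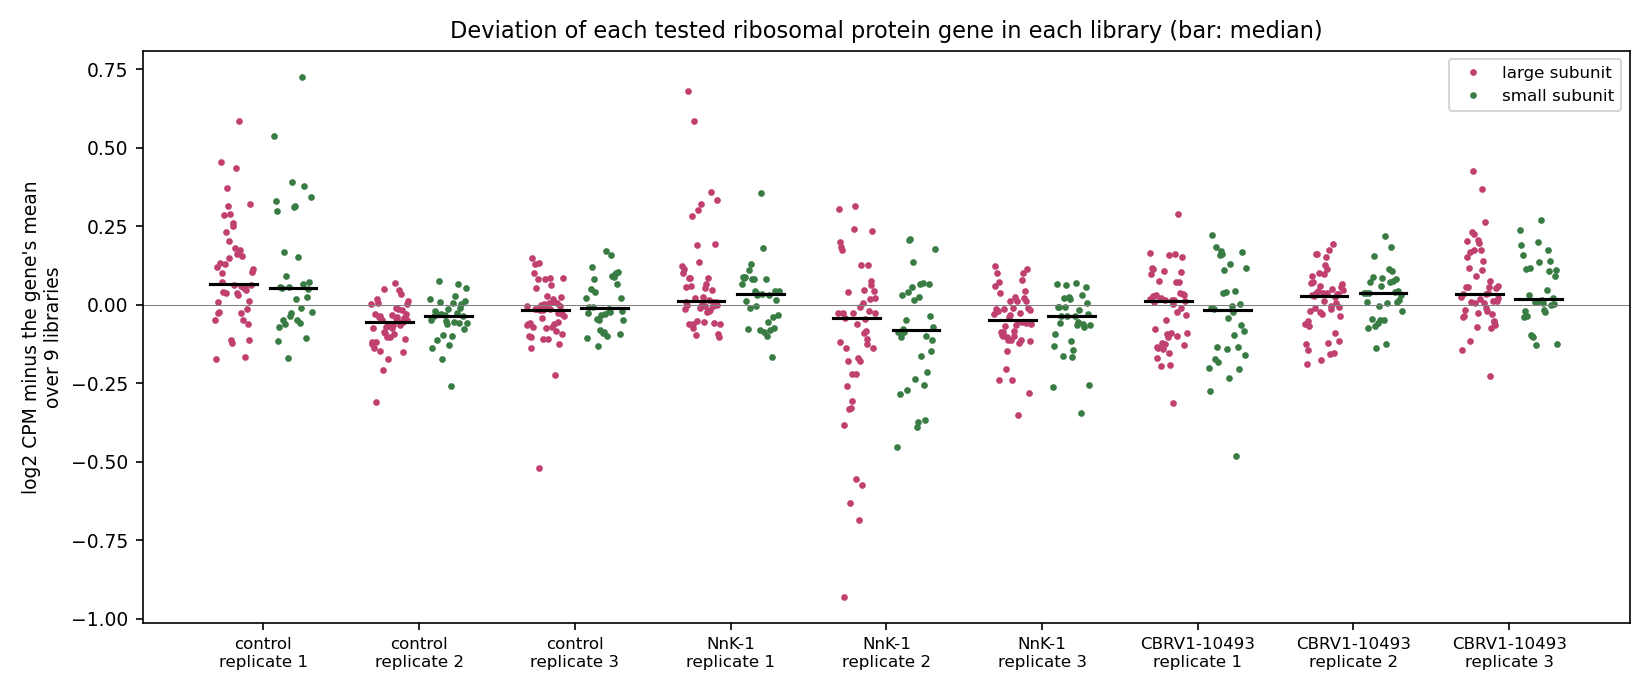
Each point is 1 tested gene in 1 library, at its log2 CPM minus the gene's mean over the 9 libraries, large subunit genes in pink and small in green, with bars at the medians. Points spread widest in NnK-1 replicate 2 and control replicate 1 and least in control replicate 2.

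Copies of the genes elsewhere in the genome also take reads. The files count 31 ribosomal pseudogene symbols of 19 members, which together held 1.77% to 1.91% as many counts as the members. For most parents this was little, but RPL13AP5 had 30946 reads against 12220 for RPL13A, RPSAP58 had 29438 against 28916 for RPSA, and RPS26P11 had 2040 against 1980 for RPS26. RPL13AP20, another copy of RPL13A, had 8459 reads. RPL21P28 and RPL21P44 had 1257 and 703 reads against 3506 for RPL21. The pseudogene entry with most reads, RPS14P3, had 35387 against 189143 for RPS14. RPSA took between 48.2% and 50.4% of its pair's counts in every library. Paired with RPL13AP5 alone, RPL13A took 24.0%, 27.5% and 26.0% of the pair in control, 31.2%, 34.7% and 28.6% with NnK-1 and 34.8%, 26.0% and 25.4% with CBRV1-10493. The low levels of RPL13A, RPL21 and RPS26, and any difference in them, are therefore uncertain. The levels of RPSA and RPS14 are uncertain too. So is that of RPL17, which had 7501 reads beside 3170 for its readthrough entry RPL17-C18orf32.

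The genes around ribosome production gave no call either: 0 genes of the lists below passed in any comparison. The lists were the other ribosomal genes outside the naming rule (6 tested), other genes with a TOP motif (23), ribosome assembly factors (49), RNA polymerase I (15) and mTORC1 and MYC (15). Their median log2 fold changes with NnK-1 were -0.01, 0.0072, -0.04, -0.06 and 0.001, and with CBRV1-10493 they were 0.02, 0.03, -0.04, -0.02 and -0.02. Assembly factors were positive in 20 of 49 with NnK-1 and 18 of 49 with CBRV1-10493. Among them RRP9, a protein of the U3 small nucleolar particle, had 20.6 ± 0.849 CPM in control, 16.4 ± 0.957 with NnK-1 and 15.3 ± 1.33 with CBRV1-10493 (SD, n = 3), with no overlap between either peptide and control (adjusted p = 0.7172 and 1, edgeR). Among TOP genes IMPDH2, which makes guanine nucleotides, had 75.9 ± 8.03 CPM in control and 96.7 ± 11.1 CPM with NnK-1, with no overlap (log2 fold change 0.37, adjusted p = 0.5776, edgeR). The TOP genes PABPC1 and EEF1G had -0.31 and 0.26 with NnK-1, with overlap. The assembly factors BYSL and UTP20 had 0.4 with overlap and -0.36 without. Assembly factors did not overlap for 5 with NnK-1 and 2 with CBRV1-10493, all lower, beside 12.8% and 8.97% of all genes. Of the 15 RNA polymerase I genes 3 were without overlap with NnK-1 and 1 with CBRV1-10493, all lower. Of the TOP genes 1 was higher and 1 lower without overlap with NnK-1. The lower one, FBL, is also on the list of assembly factors and is counted in both.

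The labelled cell type was checked against its markers. Vimentin (VIM, 3670 to 7267 CPM), NES (1243 to 1524), CD44 (1093 to 1207), S100B (119 to 140) and GFAP (19.74 to 28.98) were present in every library, while the astrocyte markers AQP4, ALDH1L1 and SLC1A2 were at or near 0, with 4, 0 and 15 reads in all. Markers of other cells were at or near 0, as 1 read for PTPRC of immune cells and 0 for CD3E, for CLDN5 of endothelium, for EPCAM of epithelium and for MOBP of oligodendrocytes.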

How the data were processed

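RNA of 9 U-373MG libraries was measured, 3 per group by the labels. Counts of reads for each gene symbol, not normalized, are what the authors deposited. Bowtie2, bedtools and the build hg19 are named in the submitters' processing notes; versions, annotation, strand and counting options are not given in the sources used here. Per the labels' design text the authors used edgeR with TMM and CPM. Here, the 25737 entries were summed to 24462 symbols (RPS18 stood on 6 entries, 1 with reads). filterByExpr (minimum count 10, minimum total 15) left 13676 genes, which were scaled by TMM and fitted with edgeR 4.0.16 in R 4.3.3, with a coefficient per group, two-sided tests, a threshold of 0.05 on the Benjamini-Hochberg adjusted p and 95% intervals. The common biological coefficient of variation was 0.169. Printed CPM use the library total without TMM.

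The members, lists, tests and rule for named genes were chosen with earlier results of these data known. The rule took RPS3, the stalk, 5S-binding and paralog genes, and, for each subunit, the members with the smallest p in each comparison, the highest and lowest level and the most and least variation. RPS17L has no entry in the files.

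On simulated data for NnK-1 against control (13464 genes in the fit, 3 simulations), 37.7% of genes changed 1.5-fold and 62.7% of those changed 2-fold were called. Among genes at 50 CPM or more 82.7% and 100% were called, and 20 of 321 calls were false. Changed genes were planted in each simulation, and counts were drawn gene by gene, with no deviation shared across a library. In the data themselves no gene passed and some libraries stood apart, so the shares called may not hold there. Alternatives were 4 other scalings, other filters, DESeq2 1.42.0, limma-voom (limma 3.58.1), the replicate number as a block, other ways of counting copies, and leaving out libraries. GC content was taken for all 80 tested members from GENCODE 29 transcripts. Proteins were not used here.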

Additional observations from a re-analysis of the deposited data

How the results depend on the processing

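Genes passing with NnK-1 numbered 74 with no filter on low counts (27 higher and 47 lower), 2 with DESeq2 and 1 without 3 libraries, against 0; with CBRV1-10493 they numbered 6 and 1 with no filter and without those 3 libraries, and between the peptides 1 with no filter. Members passing with NnK-1 numbered 3 with no filter, where RPS3 had -0.5133 (adjusted p = 7.39e-05), RPL36A -0.5003 (0.00311) and RPS10 -0.3851 (0.0463); the infinite prior degrees of freedom there are given above, and their part was not tested. The 3 libraries, control replicate 1, NnK-1 replicate 2 and CBRV1-10493 replicate 1, were left out together after seeing the data, because members stood apart in them. Without them the median of the members was 0.0495 with NnK-1 and 0.0678 with CBRV1-10493. RPS3 and RPS4X turned to 0.0683 and 0.0482 with CBRV1-10493 (adjusted p = 0.997 for both, edgeR). Members at an unadjusted p under 0.05 then numbered 10 with NnK-1, 9 with CBRV1-10493 and 19 between the peptides (12.5%, 11.2% and 23.8% of members). The shares of all genes in that fit were 6.78%, 4.61% and 5.98%.

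Leaving out each library in turn, the median of the members ran from -0.0237 to 0.0384 with NnK-1, from -0.0103 to 0.0642 with CBRV1-10493 and from 0.0087 to 0.0349 between the peptides, 0 genes passed, and RPS3 ran from -0.6444 to -0.2719, from -0.4673 to -0.1064 and from 0.0495 to 0.3407. The group means of the summed level ran from 65007 to 67746 CPM in control, from 63977 to 65087 with NnK-1 and from 65878 to 67588 with CBRV1-10493. Without the 5 most abundant members of each subunit the sums were 45677 CPM in control, 44734 with NnK-1 and 45742 with CBRV1-10493. All other scalings moved no call.

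The replicate numbers are not said to mark a shared culture, and libraries of the same number did not deviate together (correlations from -0.0566 to 0.132). With the replicate number as a block 0 members passed and RPS3 had -0.5088 with NnK-1, -0.321 with CBRV1-10493 and 0.1879 between the peptides. Depth limits RPL3L and RPL10L. For tested members the spread between 3 libraries a group gave 95% intervals reaching a median of 0.19 on either side on the log2 scale with NnK-1.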
